A study of Mus musculus with 4 samples.

Results

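The connecting cilium is the narrow bridge between the inner segment of a photoreceptor, where proteins are made, and the outer segment, where light is caught. A set of 10 genes whose human counterparts are mutated in inherited retinal disease was followed here. Their products serve this bridge or the outer segment it feeds. The genes were Rpgr, Rpgrip1, Spata7, Fam161a, Poc1b, Lca5, Tulp1, Rp2, Rp1 and Prom1. They were picked by gene symbol, and all 10 were found among 18471 genes of the deposited count table and passed the filter on low counts, which left 17300 genes. Total RNA was sequenced from 4 single retinas of genotyped mouse embryos at embryonic day 19, 2 labelled wild-type and 2 labelled Foxn3KO, which are Foxn3-/- with exon 3 deleted (allele strain C57BL/6NJ-Foxn3em1(IMPC)Bay/Mmnc). No treatment is given for either group, and the strain background of the wild-type embryos is not given beyond that word.

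A connecting cilium is a modified transition zone of a primary cilium. Its base holds a centriole, its wall is a ring of microtubule doublets with a scaffold on the inside, and a gate of protein complexes between doublets and membrane decides what passes to the outer segment. Mouse photoreceptor precursors are born from before birth on, and outer segments are built only in the weeks after it, so these libraries hold cells that have not yet made the organelle for which the genes are known.

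Libraries held 22543531 to 29360129 counts. Foxn3, the targeted gene, had 2421 and 2712 counts in the wild-type libraries against 4181 and 3219 in those labelled Foxn3KO, and gene counts do not resolve exon 3. The direction of every difference below therefore rests on the labels. Wild-type replicate 1 had 83073 counts of Xist, where each of the other libraries had 9 to 19, and so differs from them in sex pattern. Of 18 photoreceptor precursor genes all 18 were measured, and the summed level of the list was 2381 and 2358 CPM (counts scaled to a common library size with TMM factors) in wild-type and 2537 in both Foxn3KO libraries. All 10 retinal progenitor genes on the list were measured, with sums of 6361 and 6703 CPM in wild-type and 6148 and 6169 CPM in Foxn3KO. Of these, 3 were higher, 2 lower and 5 did not pass in the test used below. That test called 12.3% of all tested genes higher and 9.66% lower.

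Lists of other cell types differed in how they moved. Over 10 retinal ganglion cell genes the summed level was 1621 and 1756 CPM in wild-type and 1740 and 1726 CPM in Foxn3KO. In the test used below, 1 of these was higher, 1 lower and 8 did not pass. The same test called 12.3% of all tested genes higher and 9.66% lower. Over 9 lens genes the summed level was 8.75 and 62.7 CPM in wild-type replicates 1 and 2 and 312 and 309.7 CPM in Foxn3KO, Crygs was at 0 in wild-type replicate 1, and all 9 tested genes were higher. Over 10 genes of multiciliated cells the sum was 89.2 and 82.6 CPM in wild-type and 919 and 902 CPM in Foxn3KO, again with all 10 higher. Over 8 pigment epithelium genes it was 90.8 and 119 CPM in wild-type and 75.0 and 75.7 CPM in Foxn3KO, with 4 lower and none higher, and Rpe65, a defining gene of that layer, was not analysed here. The part of these lists in the results on the cilium genes was not tested.

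**Figure D1:**
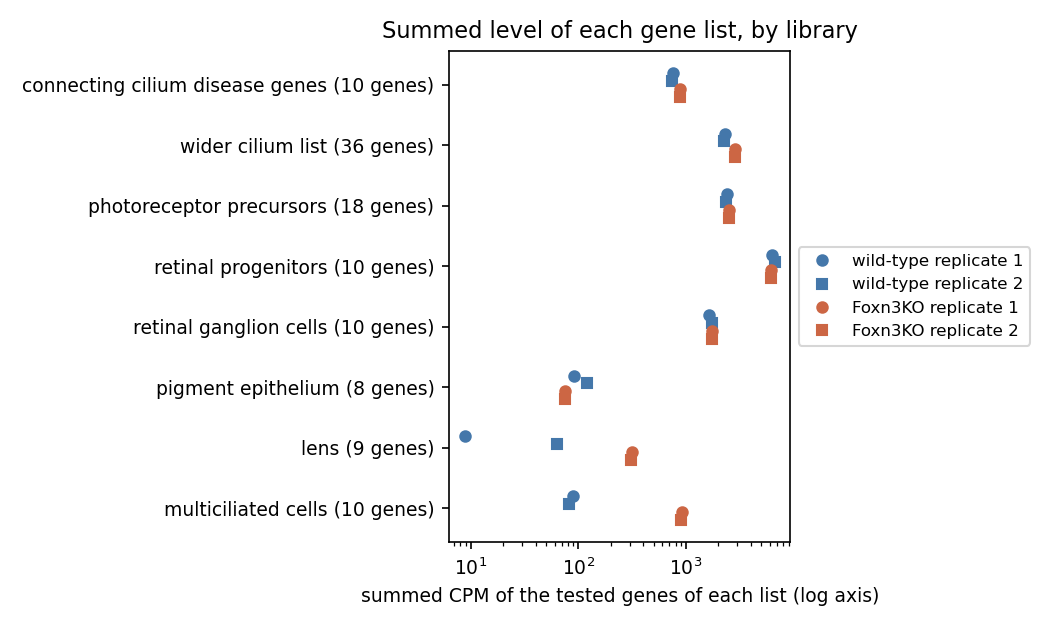
Summed CPM (x axis, log scale) of the tested genes of each list (y axis), 1 point per library. The sums of the connecting cilium disease genes lie at 737 to 762 CPM in wild-type and 886 to 889 CPM in Foxn3KO, whereas the lens sums run from 8.75 to 312 CPM.

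The promoter windows of 4 genes are shown because these genes mark the ends of the range in the results: Fam161a and Rpgr rose most, Rpgrip1 fell, and Spata7 lies close to Foxn3. Sequences are from RefSeq on build GRCm38.p6, written 5′ to 3′ on the gene's strand, and each covers 250 bases before the annotated start and 50 from it on; the submitters' processing notes name build mm39 for the counts. Capitals mark letters of a motif searched on both strands. Among these, GTTGCC is a core of the site bound by RFX factors. Its spelling with an A, GTTACC, was searched too, as was the form that ends in T, read as GTTGCT in one version and GTTACT in another. The forkhead core was GTAAACA. For CRX and OTX2 the core was TAATCC. The other spellings were added after the sequences had been seen. Windows lie at chr11:23008097-23008396 (+ strand), chrX:10216746-10217045 (- strand), chr14:52110653-52110952 (+ strand) and chr12:98627892-98628191 (+ strand).
Fam161a: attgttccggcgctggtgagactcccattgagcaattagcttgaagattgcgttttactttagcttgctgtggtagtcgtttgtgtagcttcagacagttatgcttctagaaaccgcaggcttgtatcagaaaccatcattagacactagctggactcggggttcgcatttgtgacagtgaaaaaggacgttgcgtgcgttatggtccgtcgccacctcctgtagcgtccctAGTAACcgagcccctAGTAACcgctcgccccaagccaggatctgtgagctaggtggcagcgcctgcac
Rpgr: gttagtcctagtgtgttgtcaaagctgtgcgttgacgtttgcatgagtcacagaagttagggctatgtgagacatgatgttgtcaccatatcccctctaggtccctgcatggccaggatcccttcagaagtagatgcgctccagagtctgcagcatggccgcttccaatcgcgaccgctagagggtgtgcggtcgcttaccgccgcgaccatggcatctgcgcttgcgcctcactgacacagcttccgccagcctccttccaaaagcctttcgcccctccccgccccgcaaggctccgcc
Rpgrip1: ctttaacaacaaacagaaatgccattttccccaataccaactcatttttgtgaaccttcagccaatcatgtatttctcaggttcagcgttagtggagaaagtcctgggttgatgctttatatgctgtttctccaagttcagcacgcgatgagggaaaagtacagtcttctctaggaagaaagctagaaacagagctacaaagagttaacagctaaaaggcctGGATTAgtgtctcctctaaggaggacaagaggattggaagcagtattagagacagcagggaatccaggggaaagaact
Spata7: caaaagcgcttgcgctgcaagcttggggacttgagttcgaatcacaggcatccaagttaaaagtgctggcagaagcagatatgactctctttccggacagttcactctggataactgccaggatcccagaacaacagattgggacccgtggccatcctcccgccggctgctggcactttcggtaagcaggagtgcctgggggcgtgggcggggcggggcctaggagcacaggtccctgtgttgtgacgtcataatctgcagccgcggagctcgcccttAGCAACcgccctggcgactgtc

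The table held 13 windows for 9 of the 10 genes, with none for Rp1. The Fam161a window shown holds AGTAAC, the reverse complement of GTTACT, from bases 233 and 248 on. The first copy lies wholly upstream of the annotated start and the second lies across it. Another Fam161a window, at chr11:23013137-23013436 and not shown, holds none of the motifs. Spata7 has AGCAAC at base 279, and Lca5, not shown, has both AGTAAC and GTTGCC. Rpgrip1 has GGATTA, the reverse complement of TAATCC, at base 223. No motif letters were found in the Rpgr windows, nor in those of Prom1, Poc1b, Tulp1 and Rp2. Over genes, 1 of 9 held GTTGCC against 14.1% of 27025 genes in the table, 3 of 9 held one of its other spellings against 30% (these overlap in Lca5), 1 of 9 held TAATCC against 8.14%, and none held GTAAACA against 4.05%. These are matches of letters in short windows, and shares of this kind are common among all promoters.

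In Foxn3KO, 6 of the 10 genes rose, Fam161a, Rpgr, Spata7, Tulp1, Poc1b and Lca5, and Rpgrip1 fell. Rp2, Rp1 and Prom1 did not pass the test. A gene counts as changed where the Benjamini-Hochberg adjusted p of edgeR's quasi-likelihood test over all 17300 genes was under 0.05. Among all tested genes 21.9% passed, 12.3% higher and 9.66% lower. The median log2 fold change was 0.257 over the 10 genes and -0.0047 over all tested genes. Groups did not overlap for 8 of the 10, higher in 6 and lower in 2, where 60.4% of all genes did not overlap (29.9% higher and 30.5% lower in Foxn3KO). The labels do not say whether both retinas of a group came from different embryos. The wild-type pair differs in Xist and so cannot share an embryo, but if the Foxn3KO pair does, the p-values measure only the spread between these samples.

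**Figure D2:**
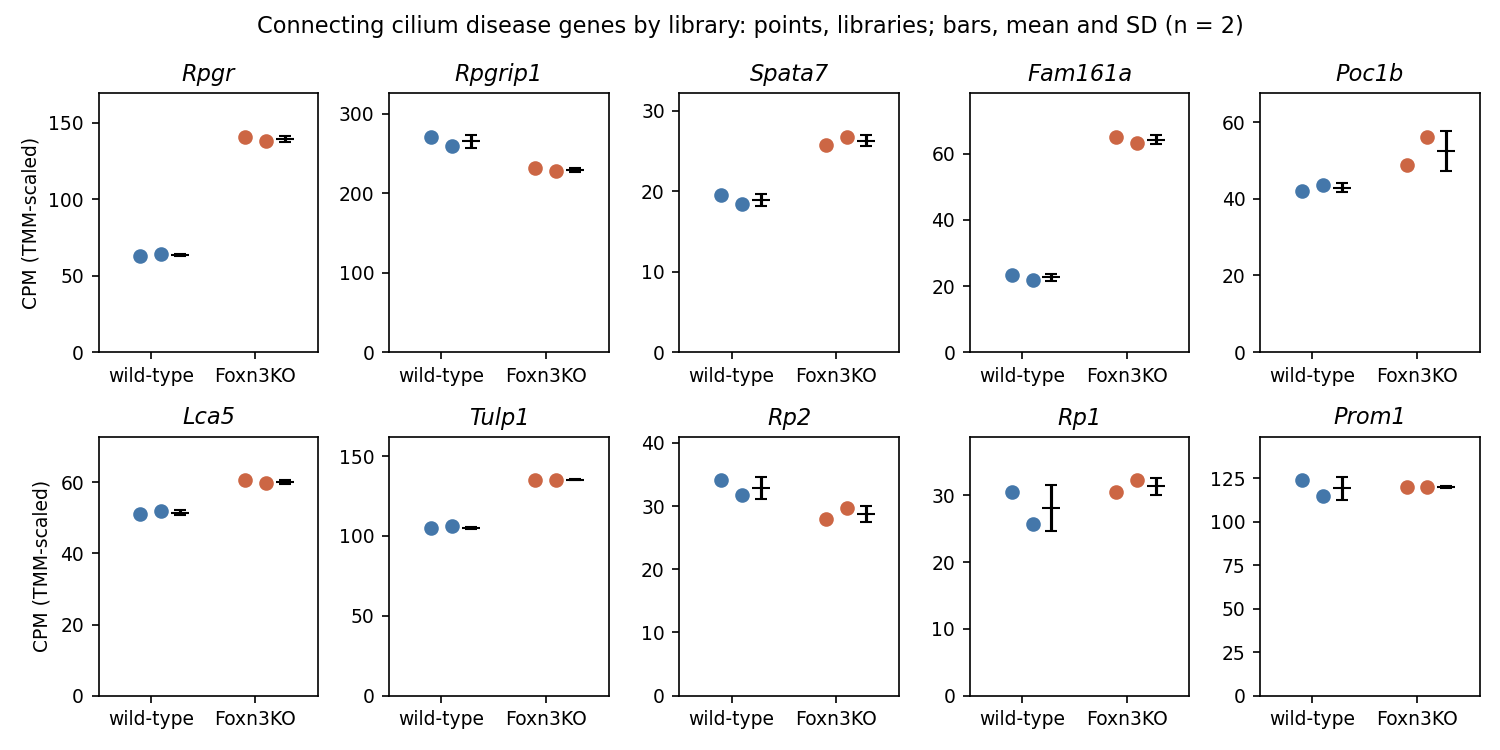
CPM (y axis, from 0) of each gene in the 4 libraries, with wild-type in blue and Foxn3KO in orange; black bars give the mean and SD of 2 libraries. Rpgr and Fam161a separate widely, Rpgrip1 sits lower in both Foxn3KO libraries, and the points of Rp1 and Prom1 overlap.

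The proteins of the ciliary gate were compared first. Rpgr, on the X chromosome, encodes a regulator with an RCC1-like domain that is tethered in the connecting cilium and whose loss causes X-linked retinitis pigmentosa. It had 62.9 and 63.9 CPM in wild-type and 141 and 138 CPM in Foxn3KO. Both Foxn3KO libraries lay far above both wild-type ones, and the libraries of each group lay close together. The fold was 2.20, which is 1.14 on the log2 scale (SE 0.0483; adjusted p = 4.32e-12 by edgeR's quasi-likelihood test). Without wild-type replicate 1, the library with high Xist, it was 1.13. Of all tested genes, 2.86% rose at least 2-fold. Srpx, which overlaps Rpgr on the same strand in the GENCODE annotation, had 33 to 65 counts per library, so it could add little to the 1559 to 4106 counts of Rpgr. Gene counts do not tell the isoforms of Rpgr apart.

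Rpgrip1 encodes the scaffold that holds RPGR in the connecting cilium and is mutated in Leber congenital amaurosis. Its level went the other way, with 271 and 259 CPM in wild-type and 231 and 228 CPM in Foxn3KO. All of the Foxn3KO values were under the wild-type ones. The log2 fold change was -0.21 (SE 0.0427, edgeR adjusted p = 0.00172), a fold of 0.866. Without Foxn3KO replicate 2 the fall was -0.196 and no longer passed, with a larger SE of 0.0761 in a fit with fewer samples. Supt16, which encodes a subunit of a histone chaperone, overlaps Rpgrip1 on the opposite strand, had 6005 to 7866 counts and rose by 0.17 in log2 units (edgeR adjusted p = 0.00550); the counting's use of strand is not given in the sources used here, so reads in the overlap cannot be assigned with certainty.

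The ratio of Rpgr to Rpgrip1 counts does not depend on library scaling. It was 0.232 and 0.247 in wild-type and 0.611 and 0.607 in Foxn3KO. Since Rpgr was higher and Rpgrip1 lower in both Foxn3KO libraries, this ratio had to separate the groups. Against Crx, a photoreceptor transcription factor gene, Rpgr counts were at 0.267 and 0.273 in wild-type and 0.586 and 0.555 in Foxn3KO. Rpgrip1 counts were at 1.15 and 1.11 of Crx in wild-type and at 0.96 and 0.915 in Foxn3KO. Crx itself had a log2 fold change of 0.06 and did not pass. The direction of both genes relative to Crx therefore had to follow that relative to the whole library.

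Spata7, the third gene of the gate, encodes a protein that binds RPGRIP1 and is needed to keep gate proteins along the length of the connecting cilium. It had 19.5 and 18.4 CPM in wild-type and 25.8 and 26.8 CPM in Foxn3KO. The groups were apart, and the log2 fold change was 0.47 (SE 0.0791, edgeR adjusted p = 0.000258). Spata7 and Foxn3 lie on chromosome 12 with 7 tested genes between them in the GENCODE order. Ttc8, a BBSome subunit gene and the neighbour of Foxn3 on the side of Spata7, rose by a similar amount, from 40.8 and 37.9 CPM to 53.2 and 54.0 CPM (log2 fold change 0.45, edgeR adjusted p = 3.44e-05).

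The other genes of the interval went both ways. Ptpn21, next to Spata7, had a log2 fold change of -0.05 (edgeR adjusted p = 0.561). Zc3h14 rose by 0.16 (edgeR adjusted p = 0.0122) and Eml5 fell by 0.19 in log2 units (edgeR adjusted p = 0.00475). The outer neighbours were near the limit of counting, with 4 to 17 counts for 5330409N07Rik and 3 to 19 for Gm47138, and neither passed (edgeR adjusted p = 0.160 and 0.409). The part of the targeted locus in the value of Spata7 was not tested.

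Among the scaffold genes, Fam161a rose most of all 10. FAM161A is a microtubule-binding protein of the inner wall of the connecting cilium, and its loss causes retinitis pigmentosa. Fam161a had 23.3 and 21.9 CPM in wild-type and 65.2 and 63.3 CPM in Foxn3KO. The libraries of each group lay close together, far from the other group. The fold was 2.84, a log2 fold change of 1.51 (SE 0.0636, edgeR adjusted p = 4.11e-12), and it stayed between 1.46 and 1.55 when each library was left out in turn. No other gene overlaps Fam161a in the GENCODE annotation used.

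Poc1b encodes a WD-repeat protein of centrioles and the same inner scaffold, mutated in cone and cone-rod dystrophy. Its level was 42.1 and 43.7 CPM in wild-type and 48.8 and 56.2 CPM in Foxn3KO. The Foxn3KO libraries were both higher but differed from each other more than those of any other of the 10 genes relative to their level. The log2 fold change of 0.29 (SE 0.0682, edgeR adjusted p = 0.00514) was 0.187 without Foxn3KO replicate 2 and then did not pass (edgeR adjusted p = 0.177). Galnt4, which lies within Poc1b on the same strand and encodes a glycosyltransferase, had 186 to 304 counts against 1044 to 1421 for Poc1b and a log2 fold change of -0.17 (edgeR adjusted p = 0.397). The count ratio of Fam161a to Poc1b was 0.555 and 0.502 in wild-type and 1.34 and 1.13 in Foxn3KO. This follows from the larger rise of Fam161a and is no separate result.

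Of the genes of transport into the outer segment, Tulp1 and Lca5 rose and Rp2 did not pass. Tulp1, a tubby-like protein of photoreceptors needed for the delivery of outer segment proteins, had 105 and 106 CPM in wild-type and 135 CPM in both Foxn3KO libraries. Its replicates were the closest of the 10 genes in Foxn3KO, and the log2 fold change was 0.37 (SE 0.0457, edgeR adjusted p = 1.15e-05). Lca5 encodes lebercilin, a ciliary protein that binds the intraflagellar transport machinery. It had 51.0 and 51.9 CPM in wild-type against 60.6 and 59.7 CPM in Foxn3KO. The groups were apart by more than their spread, with a log2 fold change of 0.23 (SE 0.0552, edgeR adjusted p = 0.00670). Without Foxn3KO replicate 1 the value was 0.214 and did not pass, with a larger SE of 0.0874 in a fit with fewer samples.

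Rp2 encodes the GTPase-activating protein of ARL3, the small GTPase that releases lipid-modified proteins from their carriers inside the cilium. Rp2, also on the X chromosome, had 34.1 and 31.7 CPM in wild-type and 27.9 and 29.7 CPM in Foxn3KO. Both Foxn3KO values were lower, but the difference did not pass, with a log2 fold change of -0.19 (95% interval -0.34 to -0.04 before adjustment, edgeR adjusted p = 0.0659). It passed under total count scaling (-0.213, edgeR adjusted p = 0.0418) and without wild-type replicate 2 (-0.25, edgeR adjusted p = 0.00983), and was -0.141 without wild-type replicate 1. Arl3 itself rose from 84.3 and 80.5 CPM to 113 and 107 CPM (log2 fold change 0.42, edgeR adjusted p = 7.28e-06). Counts of Rp2 were 0.405 and 0.393 of those of Arl3 in wild-type and 0.246 and 0.276 in Foxn3KO. Since Rp2 was lower and Arl3 higher in both Foxn3KO libraries, this ratio had to separate the groups. Arl3 was singled out for its link to Rp2 after its values were seen.

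Neither gene of the axoneme and discs passed. Rp1 encodes a doublecortin-domain protein that binds the microtubules of the outer segment axoneme. Its values overlapped, with 30.5 and 25.7 CPM in wild-type and 30.5 and 32.3 CPM in Foxn3KO, and the log2 fold change was 0.16 (95% interval -0.01 to 0.33, edgeR adjusted p = 0.188). Wild-type replicate 1 decided this call, since the value was 0.283 without it (edgeR adjusted p = 0.00444) and 0.0358 without wild-type replicate 2. Prom1 encodes prominin, a membrane protein of nascent disc rims that also marks protrusions of progenitor cells. It had 124 and 115 CPM in wild-type and 120 CPM in both Foxn3KO libraries. The Foxn3KO values lay between the wild-type ones, and the interval of the log2 fold change ran from -0.10 to 0.11 (edgeR adjusted p = 0.930).

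**Figure D3:**
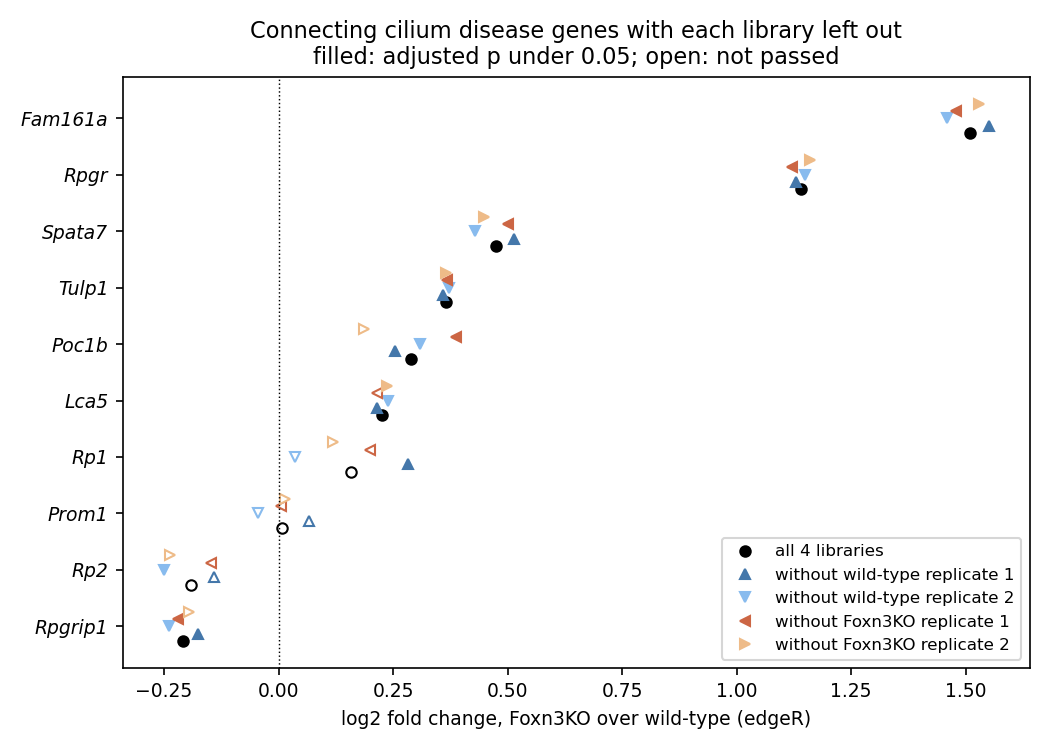
Log2 fold change (x axis, Foxn3KO over wild-type) of each gene (y axis) with all 4 libraries and with each library left out; filled symbols passed an adjusted p of 0.05 in edgeR and open ones did not. Fam161a and Rpgr keep values from 1.12 to 1.55, and the filled or open state changes for Rp1, Rp2, Rpgrip1, Poc1b and Lca5.

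Levels can be compared between genes only per length, for which the FPKM values of the authors (fragments scaled by gene length and library size) were used. In wild-type, Rpgrip1 had the highest level of the 10 genes at 21.3 and 22.2 FPKM, above 85.3% of all tested genes. Prom1 (15.9 and 17.2 FPKM) and Tulp1 (15.6 and 15.8 FPKM) followed and did not differ beyond their spread. Next came Poc1b at 10.2, Rpgr at 8.71, Lca5 at 8.13, Rp2 at 6.37 and Fam161a at 5.13 FPKM (means of 2 libraries). Rp1 at 2.28 and Spata7 at 1.87 FPKM were lowest, Spata7 being above 31.9% of tested genes. Each of these steps from Tulp1 on was larger than the summed SDs of both genes.

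In Foxn3KO the order changed. Tulp1 was highest at 20.3 FPKM, followed by Rpgr at 19.2 and Rpgrip1 at 18.8 FPKM, and the last pair did not differ beyond their spread. Rpgr thus moved from the fifth place to the second, and its mean FPKM went from below that of its scaffold Rpgrip1 to one that differed from it by less than the summed SDs. Fam161a, the eighth in wild-type, was at 14.6 FPKM and passed Poc1b (12.5 FPKM), Lca5 (9.51 FPKM) and Rp2 (5.58 FPKM). Spata7 at 2.60 and Rp1 at 2.54 FPKM remained the lowest and did not differ from each other beyond their spread.

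**Figure D4:**
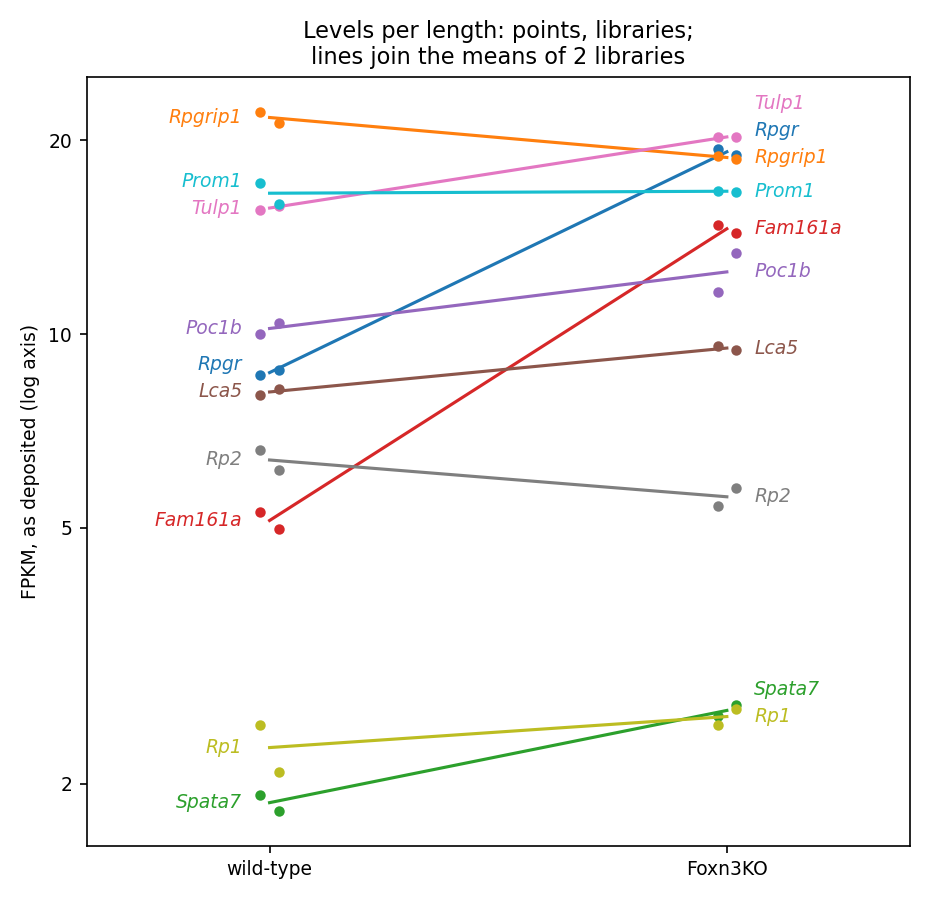
FPKM as deposited (y axis, log scale) of the 10 genes in wild-type and Foxn3KO; points are libraries and lines join group means. The lines of Rpgr (8.71 to 19.2 FPKM) and Fam161a (5.13 to 14.6 FPKM) cross those of several other genes, and the lines of Rpgrip1 and Rp2 slope down.

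A wider list of 36 genes of the photoreceptor cilium, sorted by the same 4 roles, was read from the same test. It was drawn up by role and not by response, with earlier results of these data known. Of the 36, 27 rose, none fell and 9 did not pass, though 1 and 3 were called lower without wild-type replicate 1 and 2, respectively. The 36 log2 fold changes had a median of 0.361, again beside 21.9% passing among all genes and a median of -0.0047. The 27 were 6 of 7 gate genes, 5 of 10 scaffold genes, 11 of 12 transport genes and 5 of 7 genes of the axoneme and discs. DESeq2 called 24 of the 36, where it called 15.2% of all genes to which it gave an adjusted p.

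Genes with the smallest p-values of the wider list came from 3 roles. Cfap418, whose product is needed for outer segment discs and which is mutated in cone-rod dystrophy, rose from 59.7 and 54.7 CPM to 112 and 114 CPM (log2 fold change 0.98, SE 0.0542, edgeR adjusted p = 1.92e-10). Kif3a, a motor subunit of kinesin-2, rose from 171 CPM in both wild-type libraries to 259 and 260 CPM (0.61). Cetn2, a centrin of the connecting cilium's inner wall, rose from 85.7 and 74.9 CPM to 140 and 138 CPM (0.79). Rpgrip1l, the paralog of Rpgrip1 and a gate gene in most ciliated cells, rose from 36.6 and 34.7 CPM to 59.0 and 58.3 CPM (0.72). For Kif3a, Cetn2 and Rpgrip1l the largest edgeR adjusted p was 5.86e-08. Rpgrip1l and Rpgrip1 thus went in opposite directions.

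Other genes of the wider list were singled out after their values were seen, all but Kif17 for their tie to one of the 10. Poc5, a partner of POC1B and FAM161A in the inner scaffold, had 50.9 and 54.8 CPM in wild-type and 55.0 and 59.2 CPM in Foxn3KO and did not pass (log2 fold change 0.11, 95% interval -0.02 to 0.24, edgeR adjusted p = 0.216). Tub, the relative of Tulp1 that works in cilia of neurons, rose by 0.37 in log2 units (edgeR adjusted p = 2.39e-05). Rp1l1, the paralog of Rp1, had a log2 fold change of 0.21 and did not pass (edgeR adjusted p = 0.0784). Prph2, which encodes the disc rim protein peripherin, had 0.18 (edgeR adjusted p = 0.0634), and Rom1, its partner, rose by 0.24 (edgeR adjusted p = 0.00566). Unc119, a carrier whose cargo ARL3 releases, rose by 0.17 (edgeR adjusted p = 0.0158), and Pde6d, another such carrier, had 0.07 (edgeR adjusted p = 0.402). Kif17, named for its value, had the largest fold of the list (log2 fold change 2.10, edgeR adjusted p = 2.33e-06). It rose from 1.01 and 1.84 CPM in wild-type to 6.52 and 5.76 CPM in Foxn3KO.

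**Figure D5:**
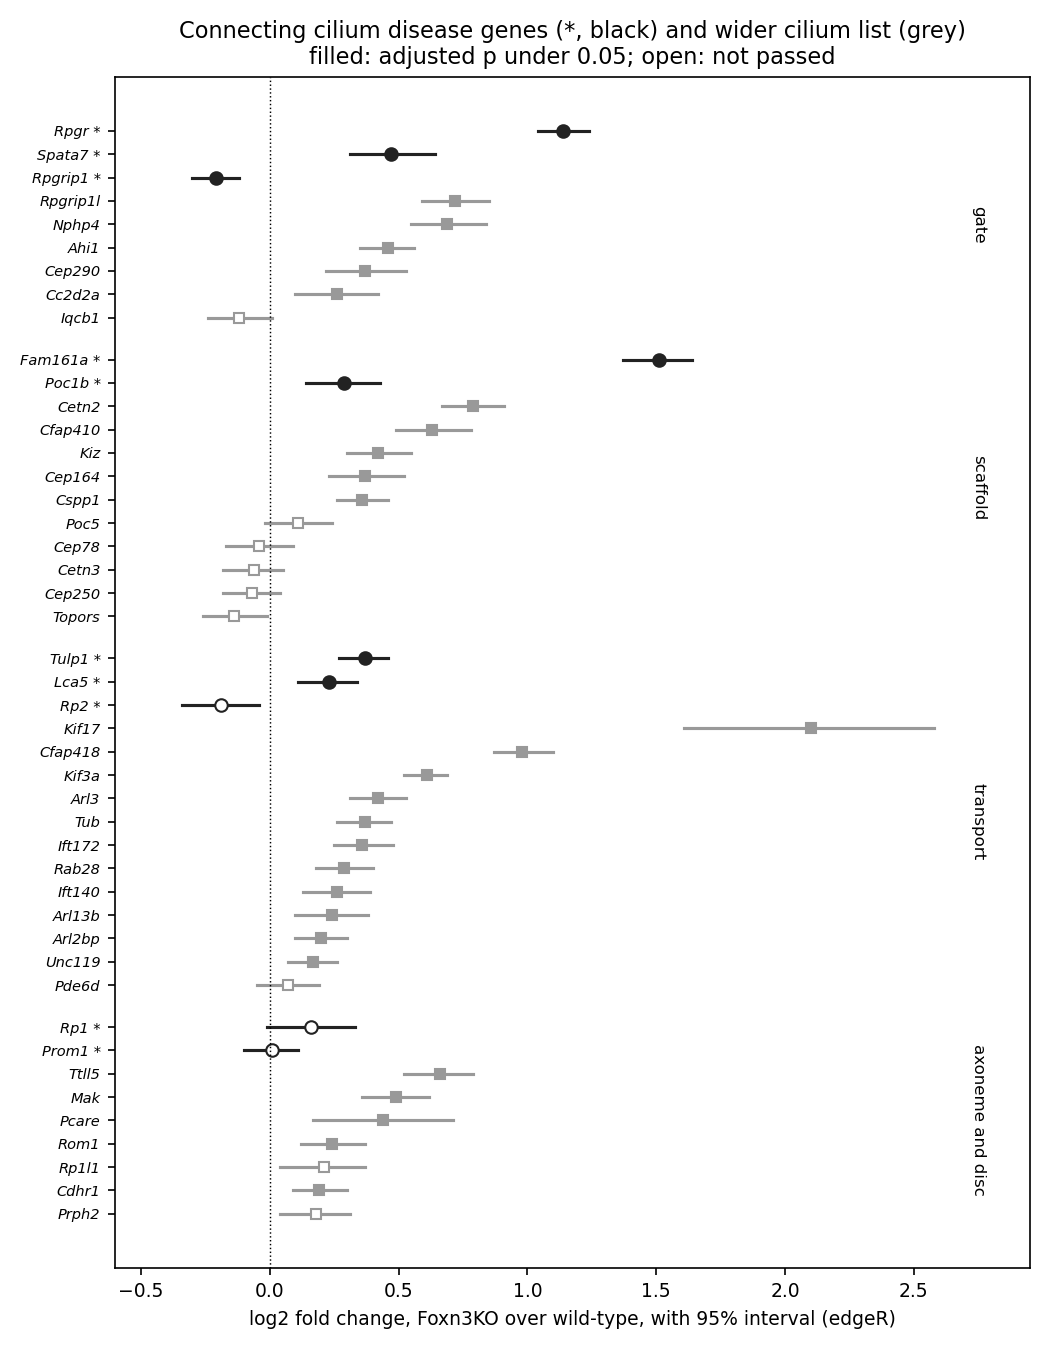
Log2 fold change with its 95% interval (x axis) for the 10 connecting cilium disease genes (black, starred) and 35 genes of the wider list (grey), ordered by role (y axis); filled symbols passed an adjusted p of 0.05 in edgeR. Most intervals lie right of 0, those of Rpgrip1, Rp2 and Topors lie left of it, and the highest value is that of Kif17 at 2.10.

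Photoreceptor precursor genes served as the measure of the cells that will build a connecting cilium. In bulk RNA, a change in the number of such cells and a change in RNA per cell cannot be told apart. Otx2, a transcription factor gene of photoreceptor and bipolar precursors, had 461 CPM in both wild-type libraries and 459 and 448 CPM in Foxn3KO, and Crx had 235 and 234 CPM against 241 and 249 CPM. Neither passed (log2 fold change -0.02 and 0.06, edgeR adjusted p = 0.750 and 0.354). Nrl, the rod determinant, rose from 77.8 and 80.9 CPM to 95.2 and 97.2 CPM (0.28, edgeR adjusted p = 0.000549). Sag, the arrestin of phototransduction, rose from 14.4 and 15.8 CPM to 30.3 and 29.6 CPM (0.99, edgeR adjusted p = 5.46e-08), and Rcvrn, which encodes recoverin, from 2.18 and 2.28 CPM to 4.12 and 4.29 CPM (0.91, edgeR adjusted p = 0.00275).

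Of the 18 photoreceptor precursor genes, 9 rose, none fell and 9 did not pass, and their log2 fold changes had a median of 0.14, beside 12.3% higher and 9.66% lower among all tested genes and a median of -0.0047. The values of Rpgr (1.14) and Fam161a (1.51) were above that of Sag, the highest of this list. Those of Rpgrip1 (-0.21) and Rp2 (-0.19) were below that of Thrb (-0.18, SE 0.0632), the lowest, but by less than its SE. Neither Rp2 nor Thrb passed. The other 6 of the 10 genes lay within the range of the list. Whether the cilium genes differ from the precursor genes as a group was not tested.

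In the authors' deposited table, 7 of the 10 genes had an adjusted p under 0.05, as did 2437 of all 18471 genes. The authors' deposited table gives log2 fold changes of 1.50 for Fam161a, 1.13 for Rpgr, 0.44 for Spata7 and -0.20 for Rpgrip1, with adjusted p-values of 6.54e-57, 3.30e-65, 0.000822 and 0.000802. For Rp2 the authors' deposited table has -0.17 with an adjusted p of 0.245.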

How the data were processed

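RNA was measured in 4 retinas, grouped and numbered by the sample labels. The authors deposited 1 table with raw read counts, whole numbers for each gene in each library, and, per the file headers, FPKM values per library, a mean signal per gene and the authors' log2 fold changes and p-values. The submitters' processing notes name DESeq2 and the genome build mm39 without a role; the aligner, counter, annotation, strand setting and use of the kit's molecular identifiers are not given in the sources used here. The log2 fold changes and p-values that the authors deposited were copied, not recomputed.

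A repeated gene identifier was dropped, which left 18471 genes. The members and lists were chosen with earlier results of these data known. The filterByExpr filter kept 17300 of them. Genotype was tested, two-sided and without other terms, by the quasi-likelihood test of edgeR 4.0.16 (R 4.3.3, TMM scaling, new-style fit), and p-values were adjusted over the 17300 genes by Benjamini-Hochberg with a threshold of 0.05. The procedure was tested on simulated data. Standard errors were derived from F, and intervals are at 95%. The text names the 10 genes, Foxn3, 5 photoreceptor genes, the 5 called genes of the wider list with the smallest p in each direction (none was lower, and 1 of the 5 is not reported here), the neighbours of Spata7 and Foxn3, and genes said to be singled out. Alternatives were RLE factors, total count scaling, no filter, a minimum of 10 counts per library, limma-voom (limma 3.58.1), DESeq2 1.42.0, edgeR's legacy fit, a threshold of 0.1, a replicate block, and fits without each library. Overlaps and gene order come from GENCODE M21, a build other than that of the counts, so only names are used. At these depths 3 counts are 0.102 to 0.133 CPM, which covers counting error only. Figures were drawn with matplotlib 3.10.9.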

Additional observations from a re-analysis of the deposited data

How the results depend on the processing

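The count of 7 changed genes among the 10 was 7 or 8 under the alternatives that kept all libraries, and 5 to 8 when a library was left out; 27 of the wider list became 21 to 30, and 9 of the photoreceptor precursor genes became 6 to 10, when a library was left out. Of the wider list, 28 were then higher and 1 lower without wild-type replicate 1, and 27 higher and 3 lower without wild-type replicate 2. Of the photoreceptor precursor genes, 9 were higher and 1 lower without wild-type replicate 2, under total count scaling, under both other filters, with the replicate block and at the threshold of 0.1. Without a Foxn3KO or wild-type library, that group has 1 sample, which is assumed to vary like the other group. The median of the 10 genes ranged from 0.212 to 0.290 when a library was left out and from 0.237 to 0.259 otherwise. Calls over all genes numbered 2433 under DESeq2, where the cause was not tested, and 2336 to 5097 when a library was left out, with fewer samples in each fit. Prom1 changed sign under total count scaling (-0.0119) and when a library was left out (-0.0456 to 0.0661), as did Gm47138 (-0.00422 to 2.30); neither passed with all libraries. With all libraries kept, 78 values of the 10 genes under the alternatives kept direction and side of the threshold, and the exceptions were Prom1 and Rp2, both under total count scaling (Rp2 -0.213, then past the threshold). The labels do not say whether the replicate numbers pair the samples. The correlation of replicate differences between groups was -0.00825 over genes. It cannot settle this, since counting error enters each difference and the wild-type replicates also differ in sex pattern. With the replicate block 7 of the 10 genes, 27 of the wider list, 10 photoreceptor precursor genes and 4222 of all genes were called. The median of the 10 genes was then 0.256. Depth limits values near 3 counts, as for Gm47138.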
